A study of Mus musculus with 23 samples.

Results

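Healing wounds of diabetic mice were compared between day 10 and day 7 after wounding, in animals given vehicle and in animals given adalimumab. All samples labelled day 10 (5 libraries) were set against all samples labelled day 7 (6 libraries), which makes 11 of the 23 libraries of the series. The 4 groups were control day 7 (3 libraries), control day 10 (3), adalimumab day 7 (3) and adalimumab day 10 (2). Every animal was an HTNF ki/ki, Lepr db/db mouse aged 8 to 12 weeks, so that the controls carry both alleles as well. Each back was shaved and depilated and received 4 full-thickness wounds with a 6 mm punch, cut through the panniculus carnosus, the thin muscle sheet under the skin. The tissue sequenced was an 8 mm punch laid over the old wound and therefore included a rim of neighbouring skin. All mice had tramadol once. Control mice had PBS, and treated mice had adalimumab at 20 mg per kg on the same schedule, on days 0, 3, 7 and 10 under the skin. The labels do not say whether a library came from 1 wound or from several wounds of a mouse, and p-values measure the spread between the labelled replicates.

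Lepr db/db mice lack a working leptin receptor, become obese and diabetic, and close wounds slowly. Adalimumab is a therapeutic antibody against human tumour necrosis factor, a cytokine of early inflammation. In the later part of skin repair the new epidermis closes and cornifies, inflammatory cells leave, and the provisional matrix is replaced by cross-linked collagen. Hair follicles, pigment cells, vessels and muscle at the margin belong to the surrounding tissue or return later.

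The libraries held 33080930 to 37480787 counts each. The Y-linked gene Ddx3y had 2988 to 4913 counts in 10 of the 11 libraries, where Xist, the RNA that silences an X chromosome in females, had 0 to 35. Adalimumab day 7 replicate 3 was the reverse, at 2 counts for Ddx3y and 30365 for Xist. Across genes its log2 CPM was closest to that of adalimumab day 10 replicate 1 (correlation 0.985), outside its own group. Other day 7 libraries were also closest to a library outside their group. Adalimumab day 7 replicate 2 was closest to adalimumab day 10 replicate 2 (0.964). Control day 7 replicate 1 was closest to control day 10 replicate 2 (0.969), and adalimumab day 7 replicate 1 to control day 7 replicate 3 (0.970). In adalimumab day 7 replicate 3 the mitochondrial genome gave 4.61% of the counts. It gave 4.44% and 4.41% in the adalimumab day 10 libraries, against 7.11% to 18.1% in the other 8. Whether the label of adalimumab day 7 replicate 3 is right was not tested, and its values are given as those of the library so labelled. Genes on X, Y and the mitochondrial genome were left out of all counts of genes over the whole table. The 13 mitochondrially encoded genes appear as a measure of library content, with a median log2 difference of 0.39 in control and -1.53 in adalimumab wounds. Without that library the count of changed genes was the same 1, and it was Matn4 again (edgeR, adjusted p = 0.00759).

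One autosomal gene, Matn4, was higher on day 10, and 0 were lower, among 19869 autosomal genes tested with treatment as a block (edgeR's quasi-likelihood test, Benjamini-Hochberg adjusted p under 0.05, 0.00503% and 0% of the genes). At an unadjusted p under 0.05, 1030 genes were higher (5.18%) and 783 lower (3.94%). DESeq2 called 138 higher (0.695%) and 86 lower (0.433%), and limma voom with sample quality weights called 9 and 2. The days did not overlap in either arm for 442 genes that were higher on day 10 (2.22%) and for 208 that were lower (1.05%). The median log2 difference of all autosomal genes was 0.00. When control day 7 replicate 1, the day 7 library richest in skeletal muscle transcripts, was omitted together with adalimumab day 7 replicate 3, edgeR called 222 genes higher (1.13%) and 65 lower (0.33%) of 19680. This pair of omissions was chosen after the data had been seen. Genes that passed only with the pair omitted are given below as values of that fit and not as changes. Of all genes, 26.1% were higher and 25.6% lower in both arms, which is the background for the counts of list members with 1 sign in both arms.

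Matn4 encodes matrilin 4, an adaptor protein of the extracellular matrix that links collagen fibrils and proteoglycans. Its level on day 7 was 0.491, 0.384 and 0.257 CPM (counts scaled to a common library size) in control wounds and 0.364, 0.592 and 0.712 CPM in adalimumab wounds. On day 10 it was 2.52, 4.23 and 3.60 CPM in control wounds and 5.10 and 6.51 CPM in adalimumab wounds. Every day 10 library was therefore above every day 7 library, and the highest values were those of the adalimumab day 10 wounds. The raw counts behind these levels were 9 to 28 on day 7 and 84 to 242 on day 10. The log2 difference was 3.27 ± 0.26 (SE; adjusted p = 0.00162), a 9.64-fold rise. It was 3.18 ± 0.38 in control and 3.37 ± 0.39 in adalimumab wounds, and the difference between the arms was 0.19 ± 0.54 (adjusted p = 0.926).

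**Figure D1:**
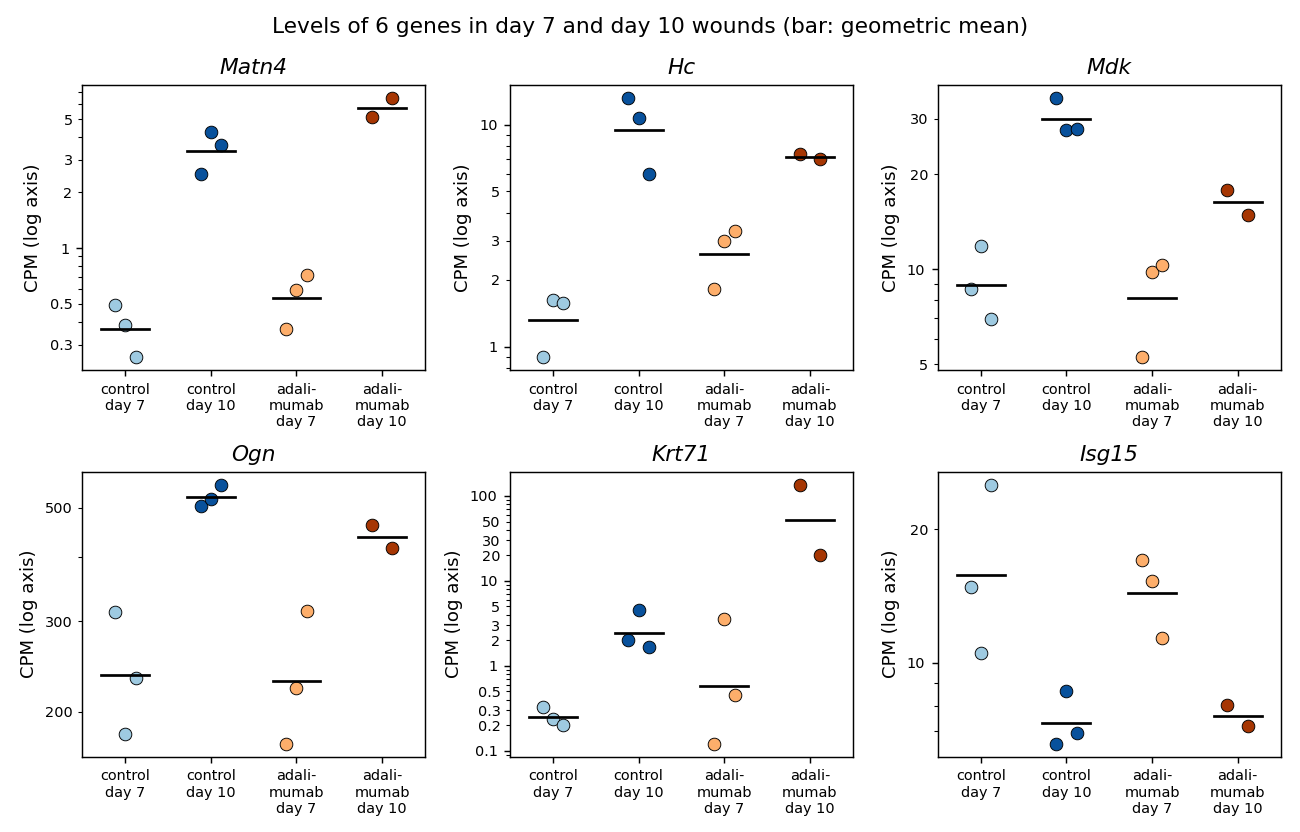
CPM of 6 genes on a log axis in each of the 11 libraries, by treatment and day, with a bar at the geometric mean of the group. Matn4 on day 10 (2.52 to 6.51 CPM) lies above all day 7 libraries (0.257 to 0.712 CPM), whereas Krt71 spans 1.65 to 136 CPM on day 10 and reaches 3.52 CPM in 1 adalimumab day 7 library.

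With each library left out in turn the log2 difference of Matn4 lay between 3.16 and 3.38 (adjusted p = 0.00236 to 0.0161). Under the other alternatives it lay between 3.22 and 3.48 (adjusted p = 2.05e-28 to 0.0352). The gene passed the test in every one of these fits. Scaled over all 23 libraries, Matn4 stood at 0.493 to 6.63 CPM in intact skin of day 0 (6 libraries, median 0.991) and at 0.0878 to 0.815 CPM in day 3 wounds (median 0.246). The day 7 wounds (0.264 to 0.732 CPM) thus lay in the range of day 3, and the day 10 wounds (2.56 to 6.48 CPM) in that of intact skin. The median of intact skin was nevertheless below every day 10 wound, and the range of intact skin overlapped that of day 7. Its 2 highest libraries were adalimumab day 0 replicates 3 and 2. The 12 libraries of days 0 and 3 held 20168 to 50247 counts of Xist and 0 to 3 of Ddx3y, so that they differ from 10 of the 11 libraries here in those transcripts as well as in time. Rbpjl, which overlaps Matn4 on the opposite strand, had 0 to 13 counts in the 11 libraries.

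**Figure D2:**
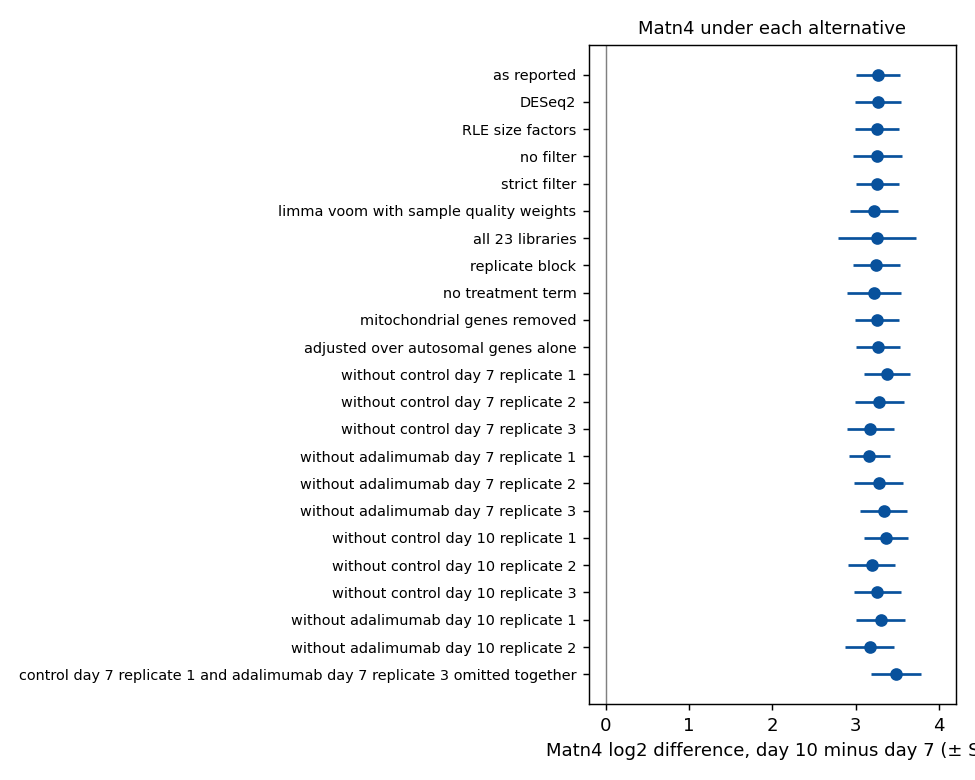
Log2 difference of Matn4 between day 10 and day 7, with its SE, in the reported fit and under each alternative. The values lie between 3.16 and 3.48, and the fit of all 23 libraries has the widest error.

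Beyond Matn4, the genes ranked first by p, 12 on each side, are given as values. Only genes with an ordinary symbol and a mean log2 CPM of at least 1 were ranked. That level left out Glp1r (mean log2 CPM -1.27), which had the smallest p of all lower genes (log2 difference -3.25, adjusted p = 0.153). None of the ranked genes beyond Matn4 passed the test (adjusted p = 0.153 to 0.248). All 24 had the same sign in both arms, and in each the days did not overlap within either arm. Their choice by p over both arms favours this, so it is not a separate test of the arms. Of all genes, 26.1% were higher and 25.6% lower in both arms. The days did not overlap in either arm for 2.22% on the higher and 1.05% on the lower side. For 12 of the 24 genes the libraries of the days overlapped once the arms were put together. DESeq2 called all 24, and 16 passed in edgeR when the pair of day 7 libraries named above was omitted.

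Hc encodes complement component C5, from which the attractant C5a and the start of the membrane attack complex are cut. It stood at 0.900, 1.63 and 1.57 CPM in control and 1.82, 2.99 and 3.33 CPM in adalimumab wounds of day 7. On day 10 it stood at 13.2, 10.7 and 5.98 CPM in control and 7.34 and 7.02 CPM in adalimumab wounds. All day 10 libraries were above all day 7 libraries, with a log2 difference of 2.23 ± 0.35 (adjusted p = 0.153). The difference was 2.87 in control and 1.40 in adalimumab wounds, whose day 7 libraries were already higher. The difference between the arms was -1.46 ± 0.54 (adjusted p = 0.748).

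Mdk encodes midkine, a heparin-binding growth factor. It stood at 8.67, 11.9 and 6.94 CPM in control and 5.27, 9.79 and 10.3 CPM in adalimumab wounds of day 7, against 34.9, 27.6 and 27.8 CPM and 17.9 and 14.9 CPM on day 10. The days did not overlap, and the control wounds of day 10 were the highest (log2 difference 1.38 ± 0.23, adjusted p = 0.153). Its relative Ptn, pleiotrophin, stood at 13.5 to 48.4 CPM (median 19.0) on day 7 and 34.5 to 130.3 CPM (median 97.3) on day 10, and its days overlapped (log2 difference 1.57 ± 0.42, adjusted p = 0.370). Igf1, insulin-like growth factor 1, was at 193, 144 and 182 CPM in control wounds of day 7 and at 404, 486 and 435 CPM on day 10. In adalimumab wounds it was at 125, 243 and 232 CPM and 272 and 209 CPM, where the days overlapped (log2 difference over both arms 0.88 ± 0.24, adjusted p = 0.384). Of 19 EGF family members and growth factors, 3 were higher (all genes: 5.18%) and 2 lower (3.94%) at an unadjusted p under 0.05. The median was 0.11 (-0.066 without control day 7 replicate 1). With the pair of day 7 libraries omitted, Mdk and Ptn passed on the higher side (2 of 19, against 1.13% of all genes).

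Ogn encodes osteoglycin, a small leucine-rich proteoglycan that binds collagen fibrils. It stood at 313, 181 and 233 CPM in control and 173, 222 and 314 CPM in adalimumab wounds of day 7. On day 10 it was at 503, 519 and 555 CPM and 462 and 417 CPM, above all day 7 libraries (log2 difference 1.02 ± 0.18, adjusted p = 0.153). With the pair of day 7 libraries omitted the value was 1.24 ± 0.14 (adjusted p = 0.0033), which passed. Ogn overlaps Cenpp on the opposite strand, which had 98 to 258 counts. Lum, the related proteoglycan lumican, stood at 677 to 1296 CPM (median 1032) on day 7 and 1439.5 to 2133 CPM (median 1684) on day 10 (log2 difference 0.71 ± 0.16, adjusted p = 0.282), and there too the day 10 libraries were the higher ones.

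Olfml2a, an olfactomedin-domain protein of the matrix, stood at 11.3 to 27.8 CPM (median 16.1) on day 7 and 33.9 to 40.1 CPM (median 37.3) on day 10, with a log2 difference of 1.06 ± 0.18. Plxdc1, a membrane protein first known from tumour vessels, stood at 3.11 to 8.52 CPM (median 4.17) on day 7 and 9.16 to 16.4 CPM (median 12.3) on day 10, with 1.43 ± 0.26. Gask1a stood at 0.591 to 2.10 CPM (median 1.38) on day 7 and 3.82 to 6.47 CPM (median 5.01) on day 10, with 1.78 ± 0.31. Each of these 3 genes had all day 10 libraries above all day 7 libraries and an adjusted p of 0.153 to 0.166. The RNA-binding protein gene Cirbp, known for its induction by mild cold, had a smaller difference with a narrow spread. It stood at 16.0, 21.3 and 15.5 CPM in control and 17.3, 16.1 and 14.5 CPM in adalimumab wounds of day 7, against 25.1, 31.7 and 25.3 CPM and 30.5 and 30.7 CPM on day 10. All day 10 libraries were above all day 7 libraries (log2 difference 0.77 ± 0.13, adjusted p = 0.153).

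The remaining 4 of the higher genes were Krt25, Krt27, Krt71 and Krt73, keratins of the inner root sheath, the layer that moulds a growing hair. Krt71 stood at 0.327, 0.236 and 0.200 CPM in control wounds of day 7 and 2.01, 4.49 and 1.65 CPM on day 10. Adalimumab wounds had 0.121, 3.52 and 0.458 CPM on day 7 and 136 and 20.3 CPM on day 10. Within each arm the days were apart. The second adalimumab day 7 library nevertheless lay above 2 of the 3 control day 10 libraries, and the first adalimumab day 10 library was far above all others. The log2 difference was 4.78 ± 0.90 (adjusted p = 0.201), with 3.40 ± 1.14 in control and 5.84 ± 1.16 in adalimumab wounds. The values of Krt25, Krt27 and Krt73 were 4.55 ± 0.84, 4.79 ± 0.88 and 4.46 ± 0.77, with the same adalimumab day 7 and day 10 libraries on top. Without adalimumab day 10 replicate 1 the values of Krt25, Krt27, Krt71 and Krt73 were 3.46, 3.43, 3.58 and 4.02. Without adalimumab day 7 replicate 2 they were 5.20, 5.29, 5.46 and 5.15.

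Of 16 hair follicle genes 14 were higher (all genes: 5.18%) and 0 lower (3.94%) at an unadjusted p under 0.05. In both arms 15 were higher (26.1%), and for 12 the days did not overlap in either arm (2.22%). The median log2 difference was 2.74, 2.87 in control and 3.33 in adalimumab wounds, and none of the 16 passed over all genes. It was 2.49 to 3.48 with 1 library left out, the highest without adalimumab day 7 replicate 2. Genes named here and elsewhere that the naming rule does not cover were picked after their values had been seen, most of them for a small unadjusted p. Dlx3, a homeobox factor of differentiating hair and epidermis, stood at 1.28, 1.24 and 1.14 CPM in control wounds of day 7 and 4.67, 3.91 and 3.14 CPM on day 10. Adalimumab wounds had 1.52, 8.82 and 6.57 CPM and 18.0 and 16.8 CPM (log2 difference 1.65 ± 0.35, adjusted p = 0.228). Shh, the signal that drives follicle growth, stood at 0, 0.118 and 0.0285 CPM in control wounds of day 7 and 2.67, 1.62 and 0.275 CPM on day 10, and at 0.0909, 1.27 and 0.585 CPM and 2.88 and 1.53 CPM in adalimumab wounds. Krt15, a keratin of basal and bulge keratinocytes, stood at 2.26, 3.28 and 4.05 CPM in control wounds of day 7 and 28.9, 15.3 and 20.4 CPM on day 10, and at 0.818, 23.2 and 45.3 CPM and 125 and 137 CPM in adalimumab wounds. Its log2 difference was 2.63 ± 0.64 (adjusted p = 0.330). Krt15 and Dlx3 were the 2 genes besides Matn4 that passed when adalimumab day 7 replicate 1 was omitted.

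The hair follicle score of a library averages, over the 16 genes, the log2 CPM minus that gene's mean in the 11 libraries. It was -1.59, -1.65 and -1.82 in control wounds of day 7 and 0.74, 0.54 and -0.49 on day 10. The adalimumab scores were -1.90, 0.80 and -0.45 on day 7 and 3.81 and 2.02 on day 10. Adalimumab day 7 replicate 2, at 0.80, thus lay above all 3 control day 10 libraries. Matn4 stood at 0.592 CPM there against 2.52 to 4.23 CPM in those 3. In intact skin of day 0, Matn4, Krt25, Krt27, Krt71 and Krt73 all had their 2 highest values in adalimumab replicates 2 and 3. So did Mdk, Olfml2a and Gask1a of the higher side and Steap1 and Plod2 of the lower side. Whether the level of Matn4 is tied to hair follicle content was not tested.

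Pigment cell genes had a median of the same size. Of 8 melanocyte genes 7 were higher at an unadjusted p under 0.05 (all genes: 5.18%), and 7 were higher in both arms (26.1%). For only 3 of them the days did not overlap in either arm (2.22%). The median was 2.71, and none passed over all genes. Tyrp1, an enzyme of melanin synthesis, stood at 0.0273, 0.384 and 0.257 CPM in control wounds of day 7 and 1.29, 2.53 and 0.611 CPM on day 10. Adalimumab wounds had 0.121, 1.57 and 2.06 CPM and 11.0 and 3.68 CPM (log2 difference 2.64 ± 0.69, adjusted p = 0.353). Within each arm the days were apart, and adalimumab day 10 replicate 1 was the highest, as for the hair keratins. Mitf, the lineage factor that other cells also express, was the exception, at -0.16. In whole tissue, more cells of a type and more RNA per cell cannot be told apart.

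**Figure D3:**
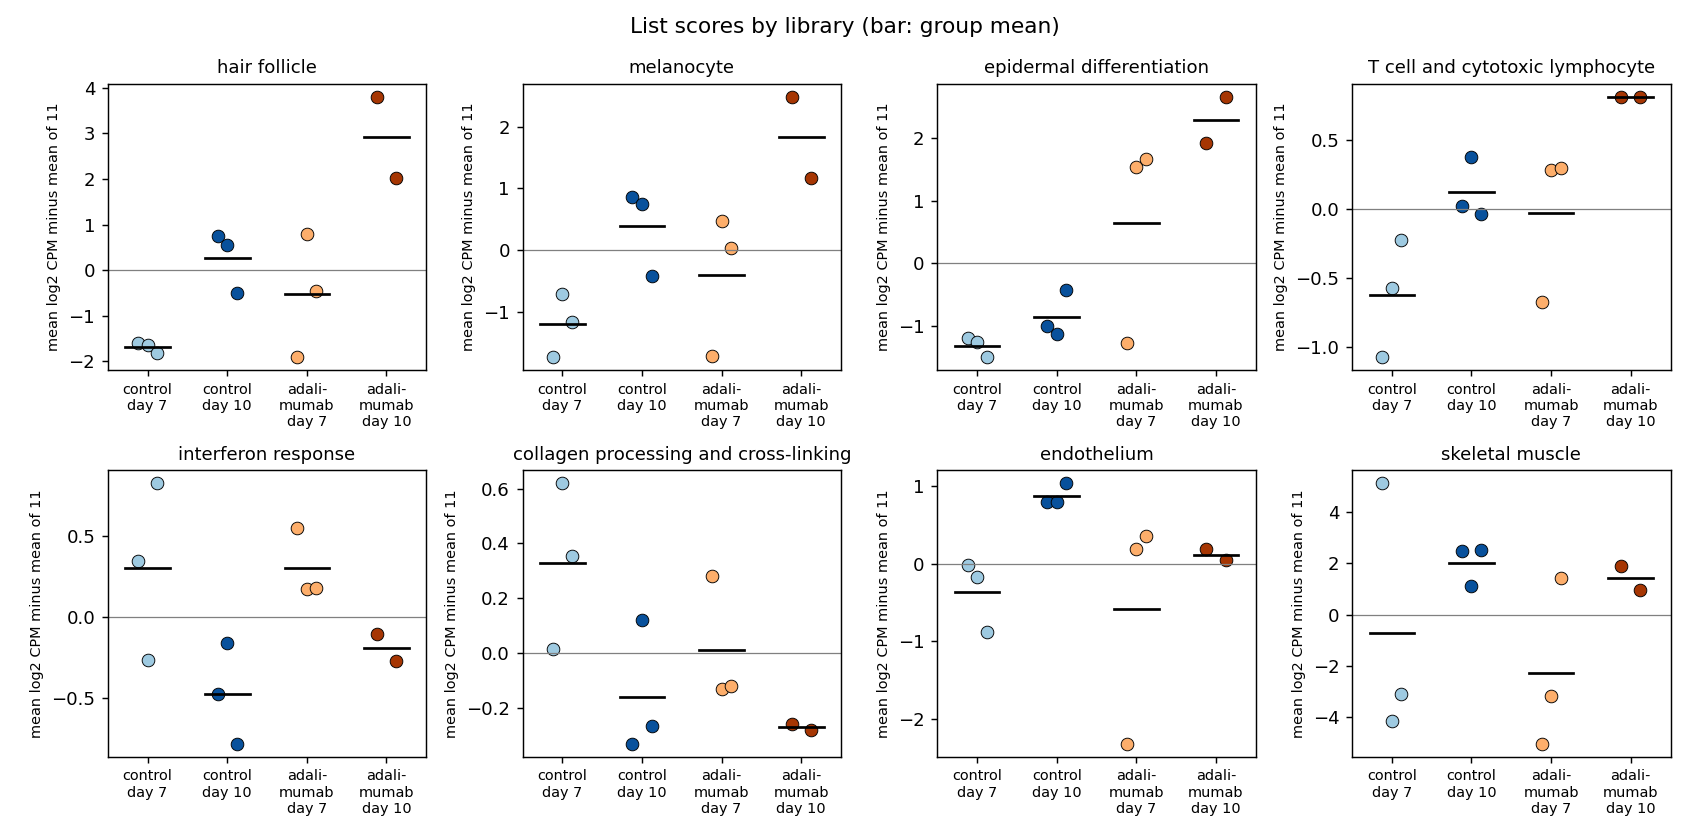
Score of 8 gene lists in each library (mean over the list of log2 CPM minus the mean of the 11 libraries), by treatment and day, with a bar at the group mean. Hair follicle scores of day 10 lie above those of day 7 within each arm, whereas skeletal muscle scores split the day 7 libraries into 1.41 and 5.10 against -5.02 to -3.08.

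Among the 12 genes on the lower side, 3 are known as genes that interferons induce. Isg15, a ubiquitin-like modifier, stood at 14.8, 10.5 and 25.2 CPM in control and 17.1, 15.3 and 11.3 CPM in adalimumab wounds of day 7. On day 10 it stood at 6.56, 8.64 and 6.93 CPM and 8.01 and 7.18 CPM, below every day 7 library. The log2 difference was -1.08 ± 0.22 (adjusted p = 0.227), -1.19 in control and -0.94 in adalimumab wounds. Ifi27l2a, a small mitochondrial protein gene, stood at 52.2, 53.8 and 107 CPM in control and 103, 44.8 and 24.9 CPM in adalimumab wounds of day 7. On day 10 it stood at 27.3, 14.6 and 10.6 CPM and 16.6 and 18.4 CPM (log2 difference -1.88 ± 0.39, adjusted p = 0.227). Oas2, a sensor enzyme for double-stranded RNA, stood at 34.9 to 109.8 CPM (median 42.7) on day 7 and 17.0 to 23.3 CPM (median 20.7) on day 10, with -1.49 ± 0.32 (adjusted p = 0.248). For Isg15 and Oas2 the days did not overlap with the arms put together, and for Ifi27l2a they did not overlap within an arm.

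Of 18 interferon response genes 11 were lower (all genes: 3.94%) and 0 higher (5.18%) at an unadjusted p under 0.05. In both arms 17 were lower (25.6%), and for 6 the days did not overlap in either arm (1.05%). The median log2 difference was -0.62, -0.82 in control and -0.50 in adalimumab wounds, and none passed over all genes. Irf7, the factor that amplifies interferon production, stood at 29.7, 19.5 and 48.3 CPM in control wounds of day 7 and 12.4, 18.6 and 9.68 CPM on day 10, and at 39.0, 26.4 and 26.4 CPM and 20.3 and 24.5 CPM in adalimumab wounds. Usp18, which removes Isg15 from proteins, stood at 7.54 to 19.0 CPM (median 11.4) on day 7 and 5.62 to 7.88 CPM (median 7.44) on day 10 (log2 difference -0.82 ± 0.24). Ifit2, an RNA-binding protein of the same response, had -0.12 ± 0.27. With the pair of day 7 libraries omitted, Isg15 and Ifi27l2a passed on the lower side (2 of 18, against 0.33% of all genes). The pair was chosen after the data had been seen.

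The list holds known interferon-induced genes, and a promoter element known for such genes was searched to show its letters. The interferon-stimulated response element was looked for on both strands as GAAANNGAAA in the 250 bases before each transcription start in RefSeq's GRCm38.p6. It was found for 9 of 13 list genes with a promoter in the table (69.2%) and for 936 of 27025 genes in all (3.46%). These shares describe the list and do not depend on the wounds. A match is a run of letters and not a measured binding site, and Irf7 and Oasl2, which also had lower values on day 10 (-0.89 and -0.90), held no match. The 3 windows below are each written 5′ to 3′ along the gene's strand. They belong to the 3 list genes with a match whose p for day 10 versus day 7 over both arms was smallest. The choice of windows therefore follows from the wound data. Oas1a and Ifit1 hold 2 matches each. Capitals mark the matched bases, and those of Ifit1 are the reverse complement.
Isg15 (chr4:156200855-156200916, minus strand): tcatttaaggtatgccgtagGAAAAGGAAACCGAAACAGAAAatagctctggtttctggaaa
Oas1a (chr5:120907526-120907565, minus strand): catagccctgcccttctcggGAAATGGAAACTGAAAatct
Ifit1 (chr19:34640765-34640833, plus strand): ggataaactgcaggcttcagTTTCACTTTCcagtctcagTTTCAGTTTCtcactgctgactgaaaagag
The window of Isg15 holds 3 overlapping matches, and its last match ends 56 bases before the start of transcription. Oas1a stood at 22.3, 16.1 and 29.2 CPM in control wounds of day 7 and 6.92, 12.5 and 6.01 CPM on day 10, with 22.0, 17.4 and 22.5 CPM and 13.4 and 16.4 CPM in adalimumab wounds. Its days were apart within each arm (log2 difference -0.98 ± 0.26, adjusted p = 0.354). Ifit1 stood at 14.3 to 45.6 CPM (median 26.5) on day 7 and 8.94 to 18.9 CPM (median 14.7) on day 10, with a log2 difference of -1.03 ± 0.31, and its control days overlapped.

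Enzymes that modify and cross-link collagen made up a further group on the lower side. Of 18 such genes 11 were lower (all genes: 3.94%) and 1 higher (5.18%) at an unadjusted p under 0.05. In both arms 15 were lower (25.6%), and for 4 the days did not overlap in either arm (1.05%). The median log2 difference was -0.42, -0.44 in control and -0.38 in adalimumab wounds, and none passed over all genes. Plod2, which hydroxylates telopeptide lysines for stable cross-links, stood at 157, 343 and 338 CPM in control and 214, 105 and 122 CPM in adalimumab wounds of day 7. On day 10 it stood at 90.9, 129.9 and 110.3 CPM and 79.5 and 69.0 CPM, so that the days were apart within each arm (log2 difference -1.18 ± 0.25, adjusted p = 0.228). Loxl3, a lysyl oxidase, stood at 55.1 to 123 CPM (median 87.2) on day 7 and 34.2 to 70.2 CPM (median 55.1) on day 10 (log2 difference -0.75 ± 0.15), and overlaps Htra2 on the opposite strand (727 to 1086 counts).

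The prolyl hydroxylase subunits, which stabilise the triple helix, had values of -0.96 ± 0.21 for P4ha1, -0.92 ± 0.24 for P4ha2 and -0.37 ± 0.16 for P4ha3. P4ha1 stood at 182, 281 and 283 CPM in control wounds of day 7 and 84.0, 145 and 91.4 CPM on day 10, and at 207, 137 and 125 CPM and 97.8 and 103 CPM in adalimumab wounds. Its days did not overlap within an arm. Serpinh1, the collagen chaperone of the endoplasmic reticulum, had -0.47 ± 0.15. The 1 gene on the other side was Adamts2, which removes the amino-terminal propeptide, with 0.44 ± 0.13. With the pair of day 7 libraries omitted, Plod2, P4ha1, P4ha2 and Loxl3 passed on the lower side (4 of 18, against 0.33% of all genes). On the higher side 0 passed. The pair was chosen after the data had been seen, and none of these genes passed in the reported fit. The omitted libraries had scores of 0.02 and -0.12 for this list, against -0.13 to 0.62 in the other day 7 libraries. Omitting them thus sets the days of the list farther apart, and the calls of that fit are not separate support.

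The collagens themselves were tested as a separate list. Of 24 genes of fibrillar collagen and matrix 5 were higher (all genes: 5.18%) and 0 lower (3.94%) at an unadjusted p under 0.05. Their median was 0.15. Eln encodes elastin. With the pair of day 7 libraries omitted, Eln passed on the higher side (1 of 24, against 1.13% of all genes). Col1a1 stood at 9924 to 17948 CPM (median 15151) on day 7 and 13317 to 18243 CPM (median 17053) on day 10 (log2 difference 0.14 ± 0.22), and Col3a1 at 20586 to 38834 CPM (median 30396) on day 7 and 24410.0 to 33193 CPM (median 28094) on day 10 (-0.08 ± 0.23). Col6a1, a chain of the microfibrillar collagen VI, stood at 836 to 1425 CPM (median 1081) on day 7 and 1302 to 1846 CPM (median 1520.0) on day 10 (log2 difference 0.52 ± 0.17, adjusted p = 0.431). Ctsk, the collagen-degrading cathepsin K, stood at 274 to 352 CPM (median 293) on day 7 and 380.0 to 583 CPM (median 410.3) on day 10, with 0.58 ± 0.13 (adjusted p = 0.282). Mmp13, the interstitial collagenase of the mouse, stood at 45.3 to 199.7 CPM (median 132) on day 7 and 179 to 372 CPM (median 219) on day 10, with 0.93 ± 0.35 (adjusted p = 0.473).

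The other genes on the lower side had varied roles. Bcat1, the cytosolic enzyme that starts the breakdown of branched-chain amino acids, stood at 68.4, 101 and 98.5 CPM in control and 84.9, 54.5 and 44.2 CPM in adalimumab wounds of day 7, against 42.4, 48.9 and 45.6 CPM and 30.9 and 27.3 CPM on day 10. Each arm had its days apart (log2 difference -1.01 ± 0.17, adjusted p = 0.153). Has2, a hyaluronan synthase, stood at 23.5 to 84.1 CPM (median 43.2) on day 7 and 19.2 to 29.6 CPM (median 22.5) on day 10 (log2 difference -1.0 ± 0.20), and overlaps Has2os on the opposite strand (71 to 256 counts). Ccn2, a matricellular protein induced by TGF-beta, stood at 31.4 to 74.9 CPM (median 57.2) on day 7 and 22.7 to 55.1 CPM (median 41.0) on day 10 (log2 difference -0.61 ± 0.13). For both genes all adalimumab wounds of day 7 were below all control wounds of day 7, and the days overlapped only with the arms put together.

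Steap1, a membrane metalloreductase, stood at 9.59 to 21.8 CPM (median 16.6) on day 7 and 4.49 to 9.22 CPM (median 8.00) on day 10 (-1.19 ± 0.24). Ms4a8a, a tetraspan membrane protein, stood at 8.88 to 26.8 CPM (median 16.6) on day 7 and 4.76 to 9.71 CPM (median 5.33) on day 10 (-1.47 ± 0.30). Fxyd5, a regulator of the sodium pump, stood at 126 to 189 CPM (median 144) on day 7 and 78.7 to 122 CPM (median 97.8) on day 10 (-0.65 ± 0.12). Pnp, a purine salvage enzyme, stood at 53.6 to 85.3 CPM (median 70.7) on day 7 and 38.6 to 55.9 CPM (median 49.6) on day 10 (-0.62 ± 0.13), and its near copy Pnp2 overlaps it on the same strand, so that its counts are uncertain. All 4 genes had adjusted p-values of 0.2005 to 0.227.

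Each arm was then tested alone, with 1 estimate of spread shared by the 4 groups. In control wounds edgeR called 0 autosomal genes (0%; 1383 at an unadjusted p under 0.05, smallest adjusted p = 0.14), DESeq2 89 higher and 56 lower, and limma voom 10 and 1. In adalimumab wounds edgeR called 0 (0%; 1591 unadjusted, smallest adjusted p = 0.132), DESeq2 16 higher and 7 lower, and limma voom 0. The difference between the arms was called for 0 genes by edgeR (0%; 1105 unadjusted, smallest adjusted p = 0.748) for 3 higher and 1 lower by DESeq2, and for 0 by limma voom. Over the 19869 genes the 2 arms' log2 differences, which share no library, correlated at r = 0.149 (Spearman 0.0945), and 51.6% of the genes had the same sign. Genes are not independent replicates, and these values are descriptions. With adalimumab day 7 replicate 1 omitted, edgeR called 68 genes higher and 9 lower in control wounds.

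**Figure D4:**
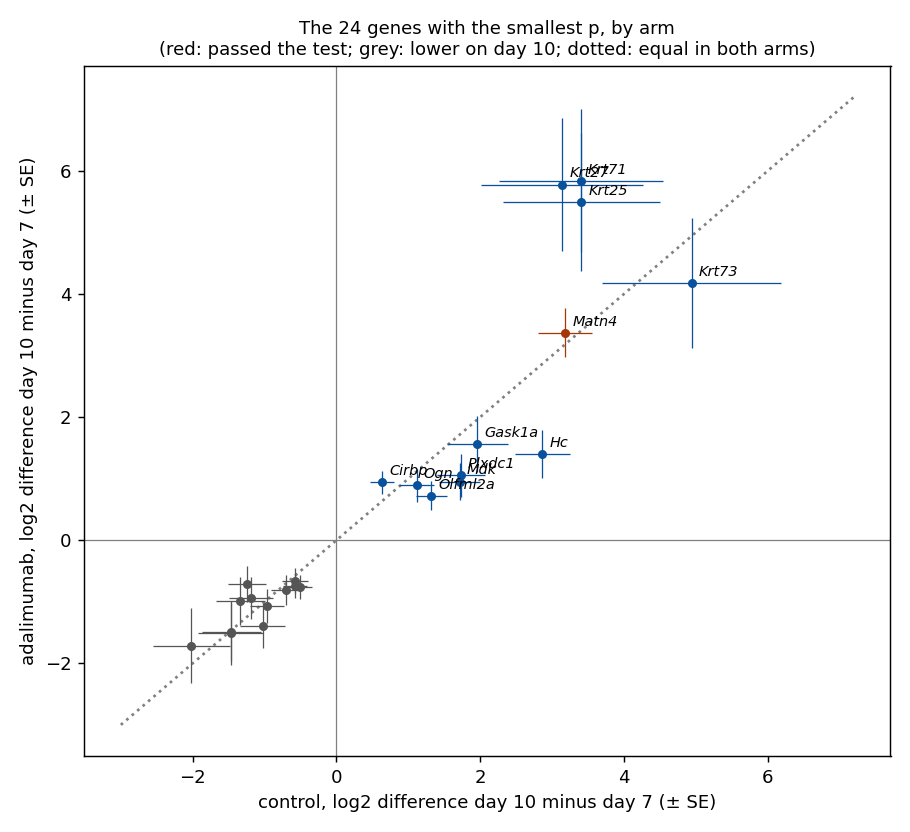
Log2 difference between day 10 and day 7 in control (horizontal) and adalimumab wounds (vertical), each with its SE. Shown are the 24 genes with the smallest p, 12 per direction, among those with an ordinary symbol and a mean log2 CPM of at least 1. All 24 lie in the quadrants of equal sign, as their choice over both arms favours, and Matn4 (3.18 and 3.37) is close to the line of equality.

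For none of the 24 genes did the difference between the arms pass the test (adjusted p = 0.748 to 0.992). The 12 genes with the smallest p for a difference between the arms did not pass in edgeR either (adjusted p = 0.748 for each). DESeq2 called 4 of them, Slco2a1 and Prr9 (adjusted p = 0.0277 each), Jchain (0.00945) and Gxylt2 (1.77e-05), which are all its calls for this difference (0.0151% of genes higher and 0.00503% lower). Slco2a1, a transporter that clears prostaglandins, stood at 54.6, 78.5 and 65.1 CPM in control wounds of day 7 and 21.1, 27.4 and 27.3 CPM on day 10. Adalimumab wounds had 54.1, 41.9 and 63.2 CPM and 65.2 and 53.2 CPM. The control days were apart and the adalimumab days overlapped, with log2 differences of -1.38 ± 0.20 and 0.16 ± 0.22 and a difference between the arms of 1.54 ± 0.30. Gxylt2, a xylosyltransferase that acts on Notch, had the opposite order. It stood at 69.2, 67.3 and 75.1 CPM in control wounds of day 7 and 127, 131 and 118 CPM on day 10, against 91.7, 89.1 and 96.4 CPM and 89.0 and 83.0 CPM in adalimumab wounds.

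The difference between the arms was -0.93 ± 0.17 for Gxylt2. The others on that side were Dennd5b (-0.90), Zfp57 (-1.22), Shox2 (-1.70), Gulp1 (-0.98) and Tead2 (-0.88), each positive in control and negative in adalimumab wounds. Tead2 is a DNA-binding partner of YAP, and Shox2 a homeobox factor of limb and heart. On the other side were Prr9 (3.22), Fhdc1 (0.97), Gtf2ird1 (0.88), Jchain (7.48) and Padi4 (1.76). Jchain, the joining chain of secreted antibodies, rested on 2 libraries, with 15.7 CPM in control day 7 replicate 3 and 18.3 CPM in adalimumab day 10 replicate 2. Without the latter its difference between the arms was 5.20, and that of Prr9 was 2.58 without adalimumab day 10 replicate 1.

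Of 29 genes of the differentiating epidermis 7 were higher (all genes: 5.18%) and 0 lower (3.94%) at an unadjusted p under 0.05. In both arms 17 were higher (26.1%), and for 5 the days did not overlap in either arm (2.22%). The median was 0.65, 0.47 in control and 1.09 in adalimumab wounds, and none passed. Krt10, a keratin of the suprabasal layers, stood at 65.8, 66.7 and 44.2 CPM in control wounds of day 7 and 195, 98.7 and 160.3 CPM on day 10. Adalimumab wounds had 55.2, 648 and 2322 CPM on day 7 and 3732 and 4888 CPM on day 10. The days were apart within each arm, but adalimumab day 7 replicates 2 and 3 lay above every control wound of either day (log2 difference 1.69 ± 0.63, adjusted p = 0.468). Flg, the filaggrin of the cornified layer, stood at 86.0 to 1264 CPM (median 213) on day 7 and 190.2 to 3389.6 CPM (median 539) on day 10, with 1.33 ± 0.43.

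Keratins of the wound edge had small values. Krt6a stood at 196 to 1885 CPM (median 427) on day 7 and 135 to 2040.4 CPM (median 433) on day 10 (log2 difference 0.19 ± 0.48) and Krt16 had -0.06 ± 0.47. The basal keratin Krt5 had 0.30 ± 0.46. Of 12 wound-edge keratinocyte genes 0 were higher (all genes: 5.18%) and 1 lower (3.94%) at an unadjusted p under 0.05. The adalimumab libraries other than day 7 replicate 1 had the highest scores of the differentiation, barrier lipid, basal and wound-edge lists.

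Of 17 endothelial genes 3 were higher at an unadjusted p under 0.05 (all genes: 5.18%) and 13 were higher in both arms (26.1%). Their median was 1.23 in control and 0.22 in adalimumab wounds. Cldn5, a tight junction protein of endothelium, stood at 4.12, 3.43 and 2.88 CPM in control wounds of day 7 and 10.1, 10.6 and 14.1 CPM on day 10, and at 0.758, 6.48 and 6.11 CPM and 9.32 and 8.50 CPM in adalimumab wounds (log2 difference 1.41 ± 0.43, adjusted p = 0.411). Pecam1, the pan-endothelial marker, stood at 5.91 to 99.7 CPM (median 61.0) on day 7 and 72.5 to 132 CPM (median 90.9) on day 10 (0.87 ± 0.52). Adalimumab day 7 replicate 1 was the lowest library for these genes, with a list score of -2.32 against -0.89 to 0.36 in the other day 7 libraries. The difference between the arms was not tested for the list.

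Of 18 hypoxia and glycolysis genes 9 were lower (all genes: 3.94%) and 0 higher (5.18%) at an unadjusted p under 0.05. Their median was -0.90 in control and -0.13 in adalimumab wounds. Ankrd37 is a gene known to be induced by hypoxia. With the pair of day 7 libraries omitted, Ankrd37 passed on the lower side (1 of 18, against 0.33% of all genes). The omitted libraries had the lowest scores of day 7 for this list (-0.20 and -0.05, against 0.03 to 0.86). Their omission thus sets the days of the list farther apart, and the call is not separate support. Slc16a3, the exporter of lactate, stood at 42.7, 118 and 76.2 CPM in control wounds of day 7 and 14.6, 34.9 and 34.5 CPM on day 10, and at 86.5, 44.3 and 44.4 CPM and 28.3 and 39.6 CPM in adalimumab wounds. Its days did not overlap within an arm (log2 difference -1.17 ± 0.34, adjusted p = 0.387). Vegfa, the main vessel growth factor and a target of hypoxia, stood at 70.0 to 664 CPM (median 176) on day 7 and 39.7 to 202 CPM (median 78.6) on day 10, and its days overlapped (-1.32 ± 0.55, adjusted p = 0.508).

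Of 18 T cell genes 6 were higher at an unadjusted p under 0.05 (all genes: 5.18%), and 17 were higher in both arms (26.1%). For only 3 of them the days did not overlap in either arm (2.22%), and the median was 0.72. Cd3e, a chain of the T cell receptor complex, stood at 0.200 to 0.680 CPM (median 0.356) on day 7 and 0.266 to 1.37 CPM (median 0.719) on day 10 (log2 difference 1.12 ± 0.38, adjusted p = 0.435). Nkg7, a cytotoxic granule protein, stood at 0.218, 0.0591 and 0.542 CPM in control wounds of day 7 and 0.569, 1.12 and 0.763 CPM on day 10, and at 0.515, 0.444 and 0.967 CPM and 1.36 and 1.83 CPM in adalimumab wounds. Both arms had their days apart (1.44 ± 0.45). Of 12 dendritic and Langerhans cell genes 2 were higher at an unadjusted p under 0.05 (all genes: 5.18%). For 2 the days did not overlap in either arm (2.22%), and 10 were higher in both arms (26.1%), with a median of 0.48. The T cell score was 0.81 in each adalimumab day 10 library. On day 7 it was 0.28 and 0.30 in adalimumab replicates 2 and 3, the ones with high epidermal scores, against -1.07 to -0.22 in the other 4.

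Of 25 cytokine and chemokine genes 3 were lower (all genes: 3.94%) and 0 higher (5.18%) at an unadjusted p under 0.05, with a median of -0.40. The sign of this median rested on 1 library, since it was 0.085 without control day 7 replicate 2 and -0.77 without control day 10 replicate 3. Ccl9, a chemokine for myeloid cells, stood at 567, 374 and 505 CPM in control wounds of day 7 and 297, 232 and 248 CPM on day 10, and at 376, 288 and 387 CPM and 283 and 243 CPM in adalimumab wounds. Its days did not overlap within an arm (-0.68 ± 0.16, adjusted p = 0.284). Il6, an early cytokine, stood at 9.49, 319.6 and 98.0 CPM in control wounds of day 7 and 8.57, 3.35 and 147 CPM on day 10, and at 7.15, 3.79 and 7.10 CPM and 2.58 and 1.59 CPM in adalimumab wounds. Control day 7 replicate 2 and control day 10 replicate 3 were the 2 highest libraries for Il6, and they were so for Cxcl2 and Nos2 as well. The log2 differences were -1.47 ± 0.96 for Il6, 0.14 ± 0.87 for Il1b, -0.28 ± 0.81 for Cxcl2 and -1.94 ± 0.92 for Nos2. Without control day 7 replicate 2 they were -0.74, 0.85, 0.17 and -0.85, and without control day 10 replicate 3 they were -2.96, -0.67, -1.36 and -2.71. Reads counted on the mouse gene Tnf stood at 0.464 to 2.06 CPM (median 0.967) on day 7 and 0.611 to 1.39 CPM (median 1.25) on day 10 (0.22 ± 0.33), and which allele of the HTNF ki/ki animals they come from was not tested. S100a8, a subunit of calprotectin, had -0.79 ± 0.43.

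Macrophage and neutrophil lists had medians near 0 (-0.05 over 19 genes and 0.09 over 16), and both changed sign with 1 library left out (-0.15 to 0.091 and -0.12 to 0.39). Among genes of alternative activation, Arg1, which breaks down arginine, stood at 178, 199 and 215 CPM in control wounds of day 7 and 94.7, 175 and 161 CPM on day 10. Adalimumab wounds had 289.9, 319 and 251 CPM and 188 and 197 CPM. The days did not overlap within an arm, by a narrow margin in control wounds (log2 difference -0.51 ± 0.16, adjusted p = 0.416). The mannose receptor gene Mrc1 had -0.40 ± 0.15. Of 24 proliferation genes 3 were lower at an unadjusted p under 0.05 (all genes: 3.94%), and 15 were lower in both arms (25.6%). Their median was -0.03 in control and -0.44 in adalimumab wounds. Mki67, the common marker of cycling cells, had -0.27 ± 0.19, and the myofibroblast gene Acta2 had -0.40 ± 0.20.

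Transcripts of the tissue under the skin had a wide spread between libraries of a group. The skeletal muscle score was 5.10, -4.13 and -3.08 in control wounds of day 7 and 2.46, 1.10 and 2.50 on day 10, and -5.02, -3.19 and 1.41 and 1.90 and 0.95 in adalimumab wounds. All 5 day 10 libraries thus lay between control day 7 replicate 1, the highest, and the 4 day 7 libraries with little muscle. The median over 15 muscle genes was 0.11, -1.31 in control and 1.44 in adalimumab wounds, and it was 3.36 over both arms without control day 7 replicate 1 alone and -0.30 without adalimumab day 10 replicate 1. With control day 7 replicate 1 and adalimumab day 7 replicate 3 omitted, the 2 day 7 libraries with muscle were gone, the median was 5.44, and all 15 muscle genes passed on the higher side. The first of those 2 libraries was picked for its muscle transcripts and the second for its Xist, so that the direction of the muscle genes follows from the choice. The fit with both omitted called 1.13% of all genes higher and 0.33% lower. Of the 287 genes called in that fit, 35 belong to any of the lists, 15 of them to skeletal muscle and 4 to muscle regeneration. The others in lists not named with this fit above were, on the higher side, 3 members of the mast cell list (Cpa3, Cma1 and Mcpt4), Abcc9 of the pericyte list and Slc2a4 of the adipocyte list. On the lower side it was Saa3 of the complement and acute phase list. The omitted libraries also had the highest mast cell scores of day 7 (0.49 and 1.29, against -1.99 to -0.40). Which cells these transcripts came from was not tested.

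Fat transcripts had a wide spread too. Adipoq, the adipocyte hormone adiponectin, stood at 12.7, 0 and 41.1 CPM in control wounds of day 7 and 15.5, 3.06 and 2.84 CPM on day 10, and at 0.303, 2.63 and 24 CPM and 25.0 and 18.7 CPM in adalimumab wounds (-0.12 ± 1.26). The adipocyte list median was -0.53 in control and 1.05 in adalimumab wounds. The part that muscle, fat and mitochondrial content play in the differences between days was not tested.

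**Figure D5:**
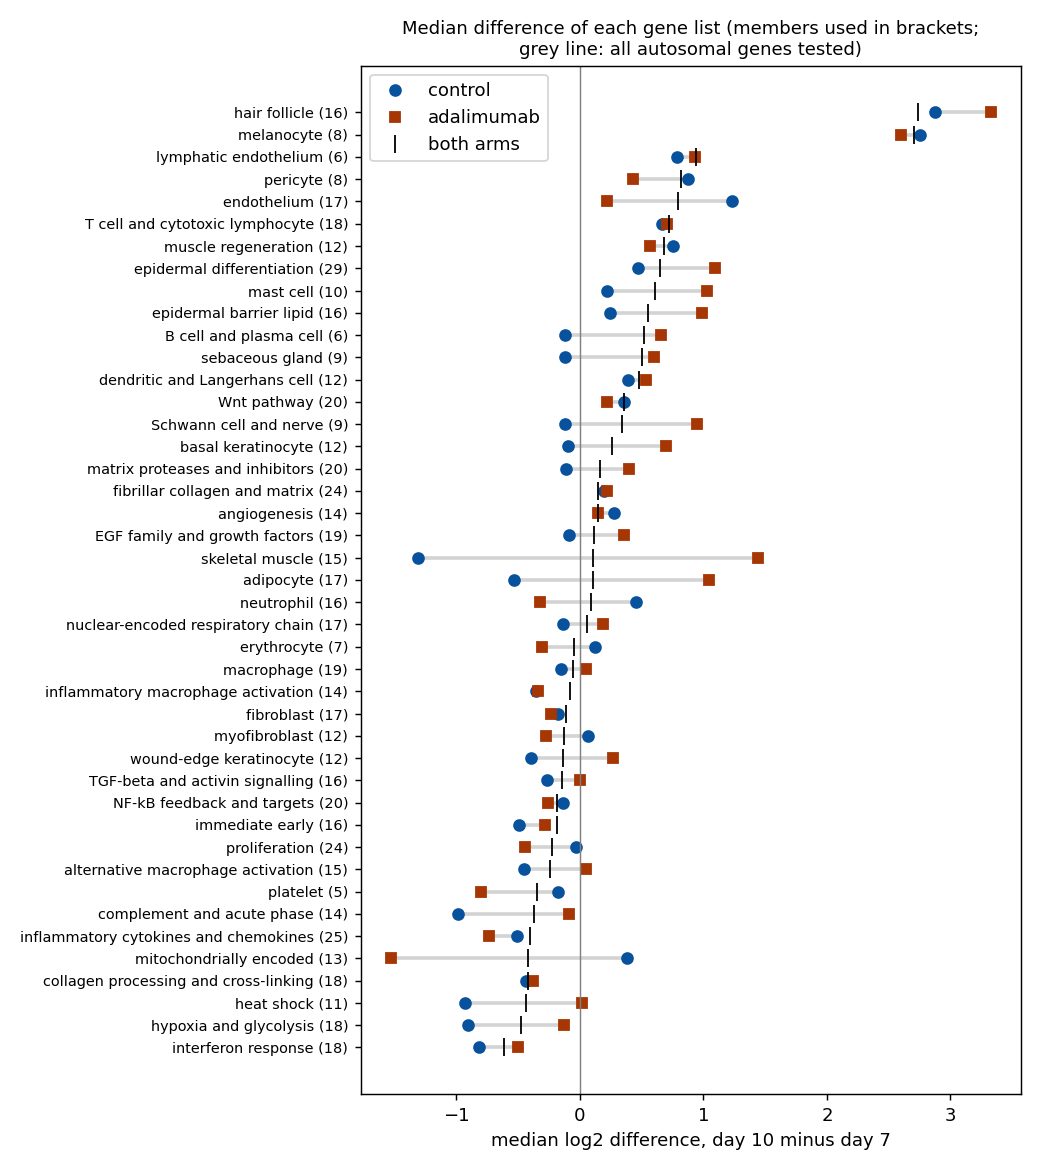
Median log2 difference between day 10 and day 7 over the members of each of the 43 gene lists, in control (circles), adalimumab (squares) and both arms (ticks), with the median of all autosomal genes as a grey line. Hair follicle (2.74) and melanocyte (2.71) lists lie farthest to the right and interferon response (-0.62) farthest to the left over both arms, while skeletal muscle and adipocyte lists have opposite signs in the arms.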

How the data were processed

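RNA from wounds was sequenced as 50 base single reads from total RNA libraries, per the labels. Alignment used STAR on GRCm39, per the submitters' processing notes. The sources used here do not name the counting tool, annotation or strandedness. The authors deposited whole-number counts per gene, with no sign of normalization in the values. After filterByExpr by group (minimum count 10, minimum total 15) and TMM scaling, edgeR 4.0.16 under R 4.3.3 fitted terms for treatment and day. Within-arm values and the difference between the arms came from a model with 1 mean per group. Benjamini-Hochberg adjustment covered 21219 genes at a threshold of 0.05, and the 19869 autosomal ones were counted. Chromosomes were matched by symbol to RefSeq and GENCODE vM21, and 617 tested genes without a match were not counted. The common dispersion was 0.144 (biological coefficient of variation 38%). Values after ± are SE.

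No gene coordinates are given beyond those of the promoter windows, which are on GRCm38.p6, since the reference is GRCm38. The fit was first tested on simulated counts. Alternatives were DESeq2 1.42.0, RLE factors, no or a stricter filter, limma 3.58.1 voom with sample quality weights, all 23 libraries, a replicate block, no treatment term, removal of mitochondrial genes, adjustment over autosomal genes alone and leaving out each library. One pair of libraries was also omitted together, added after seeing the data. The 12 genes with the smallest p in each direction (ordinary symbol, mean log2 CPM of at least 1), the 6 per direction for the difference between the arms and 21 further genes were named by rule. The comparison, the 43 lists (655 distinct genes, 635 tested) and this rule were chosen with earlier results of these data known.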

Additional observations from a re-analysis of the deposited data

Results flagged for a closer look

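For each named gene and 4 library measures, the highest and the lowest library among the 6 of day 7 and among the 5 of day 10, arms together, were compared with the nearest other library. Of 122 such sets of values 5 had a library farther out than Dixon's 95% limit, and chance alone gives about 1 in 20. The inner root sheath keratins Krt25 and Krt71 stood at 3.43 and 3.52 CPM in adalimumab day 7 replicate 2, above the other day 7 libraries (0.177 to 0.382 CPM and 0.121 to 0.458 CPM). Arg1 stood at 94.7 CPM in control day 10 replicate 1, below the other day 10 libraries (161 to 197 CPM). Nos2 stood at 45.6 CPM in control day 10 replicate 3, against 4.19 to 6.67 CPM in the other day 10 libraries. Xist had 30365 counts in adalimumab day 7 replicate 3, against 1 to 35 in the other day 7 libraries.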

How the results depend on the processing

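Over both arms Matn4 passed on the higher side in every fit run, alone in edgeR except as follows. DESeq2 called 138 genes higher and 86 lower over both arms, 89 and 56 in control, 16 and 7 in adalimumab, and 3 and 1 for the difference between the arms. limma voom called 9 and 2 over both arms and 10 and 1 in control. Without a filter edgeR called 2 higher in control and 1 higher in adalimumab. With the pair of day 7 libraries omitted, which was chosen after seeing the data, it called 222 higher and 65 lower over both arms and 33 and 4 in control; for the arms' difference and adalimumab it called 0. The cause was not tested. Leaving out 1 library gave 1 to 3 higher and 0 lower over both arms. It gave 0 to 68 higher and 0 to 9 lower in control (most without adalimumab day 7 replicate 1), and 0 to 1 higher in adalimumab (1 without adalimumab day 10 replicate 2). With the replicate block the count was 1 higher and 0 lower (Matn4, adjusted p = 0.0218). Same-numbered libraries of the 2 days had deviations correlated at 0.01, -0.06 and -0.16 in control and -0.02 and 0.11 in adalimumab, and the labels give them separate numbers of mice, so that the numbers do not pair the samples.

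Small differences changed sign. limma voom gave Col3a1 0.022 and Adipoq 0.70, the fit of all 23 libraries Il1b -0.040, the replicate block Adipoq 1.36, and the fit without a treatment term Cxcl2 0.16. With the pair omitted Krt16 was at 0.17, Col1a1 at -0.082, Tnf at -0.039 and Adipoq at 0.46. Leaving out 1 library gave Krt16 -0.29 to 0.16, Col1a1 -0.0012 to 0.22, Il1b -0.67 to 0.85, Cxcl2 -1.36 to 0.17, Adipoq -0.52 to 0.73, Krt6a -0.032 to 0.44 and Col3a1 -0.21 to 0.042. Counts of 9 to 28 per day 7 library limit the precision of Matn4, and 2 adalimumab day 10 libraries limit that of the within-arm values.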
